A study of Mus musculus with 30 samples.

Results

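The NFAT and NF-kB family loci are the chromatin regions around 10 mouse genes: the NF-kB subunit genes Nfkb1, Nfkb2, Rel, Rela and Relb, the inhibitor gene Nfkbia, and the NFAT genes Nfatc1, Nfatc2, Nfatc3 and Nfat5. A region belonged to a locus when its nearest protein-coding gene body, within 100 kb, was 1 of these 10 genes. This took 118 of the 69316 accessible regions (peaks) in the study's table of 26 libraries, in mm10 coordinates. Of these, 72 peaks lay inside a gene body, 46 lay outside one, and 92 lay inside or within 10 kb of it. Nearness assigns a peak to a gene and does not show that the peak acts on it.

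The study compared open chromatin in regulatory T cells (Treg, which carry the transcription factor Foxp3) and other CD4+ T cells of C57BL6/J mice, centred on Foxp3 and BATF. ATAC-seq uses a transposase that cuts and tags DNA where chromatin is open. All cells came from lymph nodes and spleen, each group had 2 libraries, and no age was given. By ATAC-seq the groups were BATFKO Treg (Foxp3-IRES-hCD2.Batf-/-), and from Foxp3-IRES-hCD2 mice without that deletion WT Treg (CD4+hCD2+), WT Tconv (conventional T cells, CD4+hCD2-), effector eTreg (CD4+hCD2+, CCR7lo), central cTreg (CD4+hCD2+, CCR7hi and CD44lo), effector Teff (CD4+hCD2-, CCR7lo) and naive Tnaive (CD4+hCD2-, CCR7hi and CD44lo), with the gates given in part. By omniATAC, a version with another lysis buffer, transposase and number of PCR cycles, the groups were Foxp3R397W Treg (Foxp3R397W-IRES-hCD2/Foxp3-IRES-GFP, sorted as hCD2+GFP-) and their WT control (Foxp3WT-IRES-hCD2/Foxp3-IRES-GFP). The other omniATAC groups were DKO Treg, which lack both factors (Foxp3KO-IRES-hCD2.Batf-/-), carrying the retrovirus Foxp3BATFRV, BATFRV, Foxp3RV or the empty mockRV. All DKO groups, mockRV included, share the double deletion and were sorted on CD4, hCD2, GFP, Thy1.1 and CD45.2 and against CD45.1; no strain was given for them. Foxp3 is X-linked, so mice with these allele pairs are females that hold Treg of both kinds, and the Foxp3R397W cells arose beside cells with intact Foxp3. The labels name no promoter or Cre that limits the Batf deletion to Treg.

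NF-kB is a family of dimeric transcription factors. Nfkb1 and Nfkb2 encode precursors that are cut down to DNA-binding subunits, while Rel (c-Rel), Rela and Relb encode subunits that activate transcription. The product of Nfkbia, IkB-alpha, holds dimers in the cytoplasm until antigen receptor or cytokine signals have it destroyed, and it is itself an NF-kB target gene. NFAT proteins enter the nucleus when calcium activates the phosphatase calcineurin, and bind DNA together with AP-1 factors, the class that BATF belongs to, or with Foxp3. Nfat5 differs from the other members in that it answers osmotic stress and does not depend on calcineurin. In mice c-Rel is needed for normal Treg development, and Nfatc1 has an inducible start site that NFAT proteins themselves act on.

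Library names came from the 26-library table. A second table of 22 libraries holds 18 of the same libraries by their reads, but 12 of those 18 carry another name there. The recovered reads were equal at 98.0% or more of the shared peaks for each matched pair, and at no more than 3.35% for the next best pair. Under the names used here, summed scores near 4 genes that mark naive cells (Ccr7, Lef1, Tcf7, Satb1) were 8039.6 to 8344 in eTreg against 14785 to 16109 in cTreg, and 10051 to 10651 in Teff against 17849 to 19509.9 in Tnaive. A peak at Foxp3 (chrX:7583922-7584322) had mean scores of 326 to 403 in the wild-type and BATFKO Treg groups made by ATAC-seq, against 5.17 to 9.27 in Tconv, Teff and Tnaive. A peak at Batf (chr12:85686411-85686811) held 0 reads in both BATFKO libraries and 0 to 8 in the DKO libraries, against 117 to 1490 elsewhere. Libraries held 3716499 to 25462278 reads in peaks, of which 5081 to 50953 fell in the 118 peaks. The labels do not say that libraries came from separate animals, so p-values reflect only how much these samples vary, and that variation may be technical.

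Promoter sequences are shown for 4 of the genes, Nfkbia, Nfkb2, Rel and Rela. NF-kB dimers are known to act on members of their own system, and measured peaks overlap these promoters in whole or in part. Each is the RefSeq sequence (GRCm38.p6) of the 250 bases before a start site, 5′ to 3′ on the gene's own strand. Capitals mark matches of the kappaB consensus on either strand.
Nfkbia promoter: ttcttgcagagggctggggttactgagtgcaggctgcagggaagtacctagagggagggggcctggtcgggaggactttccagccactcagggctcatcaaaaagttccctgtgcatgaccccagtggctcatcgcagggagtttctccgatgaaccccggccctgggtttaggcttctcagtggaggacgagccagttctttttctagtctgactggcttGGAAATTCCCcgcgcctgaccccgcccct
Nfkb2 promoter: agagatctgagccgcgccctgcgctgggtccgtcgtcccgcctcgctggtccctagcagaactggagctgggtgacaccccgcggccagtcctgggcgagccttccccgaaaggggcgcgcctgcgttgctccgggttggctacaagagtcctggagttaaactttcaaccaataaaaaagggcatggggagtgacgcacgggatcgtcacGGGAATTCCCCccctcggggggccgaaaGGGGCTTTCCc
Rel promoter: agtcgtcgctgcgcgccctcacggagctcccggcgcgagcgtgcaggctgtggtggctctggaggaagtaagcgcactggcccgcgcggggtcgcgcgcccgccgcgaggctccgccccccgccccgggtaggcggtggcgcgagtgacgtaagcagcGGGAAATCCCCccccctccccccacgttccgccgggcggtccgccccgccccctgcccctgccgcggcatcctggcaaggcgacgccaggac
Rela promoter: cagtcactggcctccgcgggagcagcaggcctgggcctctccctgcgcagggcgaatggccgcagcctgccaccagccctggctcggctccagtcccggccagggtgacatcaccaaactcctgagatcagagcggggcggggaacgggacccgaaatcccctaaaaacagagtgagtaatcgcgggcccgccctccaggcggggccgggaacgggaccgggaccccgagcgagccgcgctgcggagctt

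These windows are chr12:55492648-55492897 (minus strand) for Nfkbia, chr19:46304487-46304736 (plus strand) for Nfkb2, chr11:23770970-23771219 (minus strand) for Rel and chr19:5637291-5637540 (plus strand) for Rela. Nfkbia held 1 match, GGAAATTCCC, at -29 to -20 counted from the start site. Nfkb2 held 3, of which GGGAATTCCC (-39 to -30) and GGAATTCCCC (-38 to -29) overlap each other, and GGGGCTTTCC lies at -11 to -2. Rel held 2 that overlap, GGGAAATCCC (-92 to -83) and GGAAATCCCC (-91 to -82). Rela held none in these letters. The consensus was present in 3.90% of 32851 RefSeq promoters of the same length. The NFAT core GGAAA was present in 55.6% of them, and in Rel, Nfkbia and Nfkb2 at least 1 of its matches lay inside a kappaB match. A match of letters is a description and does not show binding.

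The peaks over these promoters were open in every group and none of them was called in any of 12 comparisons between groups. A peak's score is its reads divided by 1 factor per library, and a peak was called when the adjusted p of the limma fit was under 0.05. Nfkbia peak 8 (chr12:55492417-55492817) scored 812 and 833 in the eTreg libraries, 989 and 868 in those of cTreg, 701 and 679.9 in Teff and 840.4 and 786 in Tnaive. Peaks are numbered within a gene from the low-coordinate end. Rel peak 3 (chr11:23771024-23771424), which lies 55 bp before the start, scored 495 and 516 in the eTreg libraries, 436 and 451 in those of cTreg, 408 and 393 in Teff and 469 and 399 in Tnaive. At Rel peak 3 both eTreg libraries were above both Teff libraries, but limma did not call the difference. In all 6 peaks overlap a RefSeq promoter, these and Nfatc3 peak 1, Nfat5 peak 6, Nfkb2 peak 1 and Rela peak 1, and limma called none of them. Their log2 changes in the 12 comparisons lay between -0.48 (Rela peak 1, Teff against Tnaive, adjusted p = 0.124) and 0.48 (Nfkb2 peak 1, eTreg against cTreg, adjusted p = 0.0805). No promoter entry was used for Nfatc1, Nfkb1 and Relb, and that of Nfatc2 overlapped no peak.

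Scores at some promoter peaks differed between the library protocols. Nfkb2 peak 1 scored 454, 889 and 1125 (lowest, median, highest) over the 12 omniATAC libraries, against 139, 194 and 255 over the 14 ATAC libraries. Rela peak 1 scored 401, 523 and 618 over omniATAC, against 93.9, 136 and 215 over ATAC. Neither pair of ranges overlapped. Rel peak 3, at 434, 539 and 710 over omniATAC against 325, 432 and 516 over ATAC, did overlap. No group was made with both protocols, so the protocol and the groups cannot be told apart, and every test between groups below stays within 1 protocol.

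**Figure D1:**
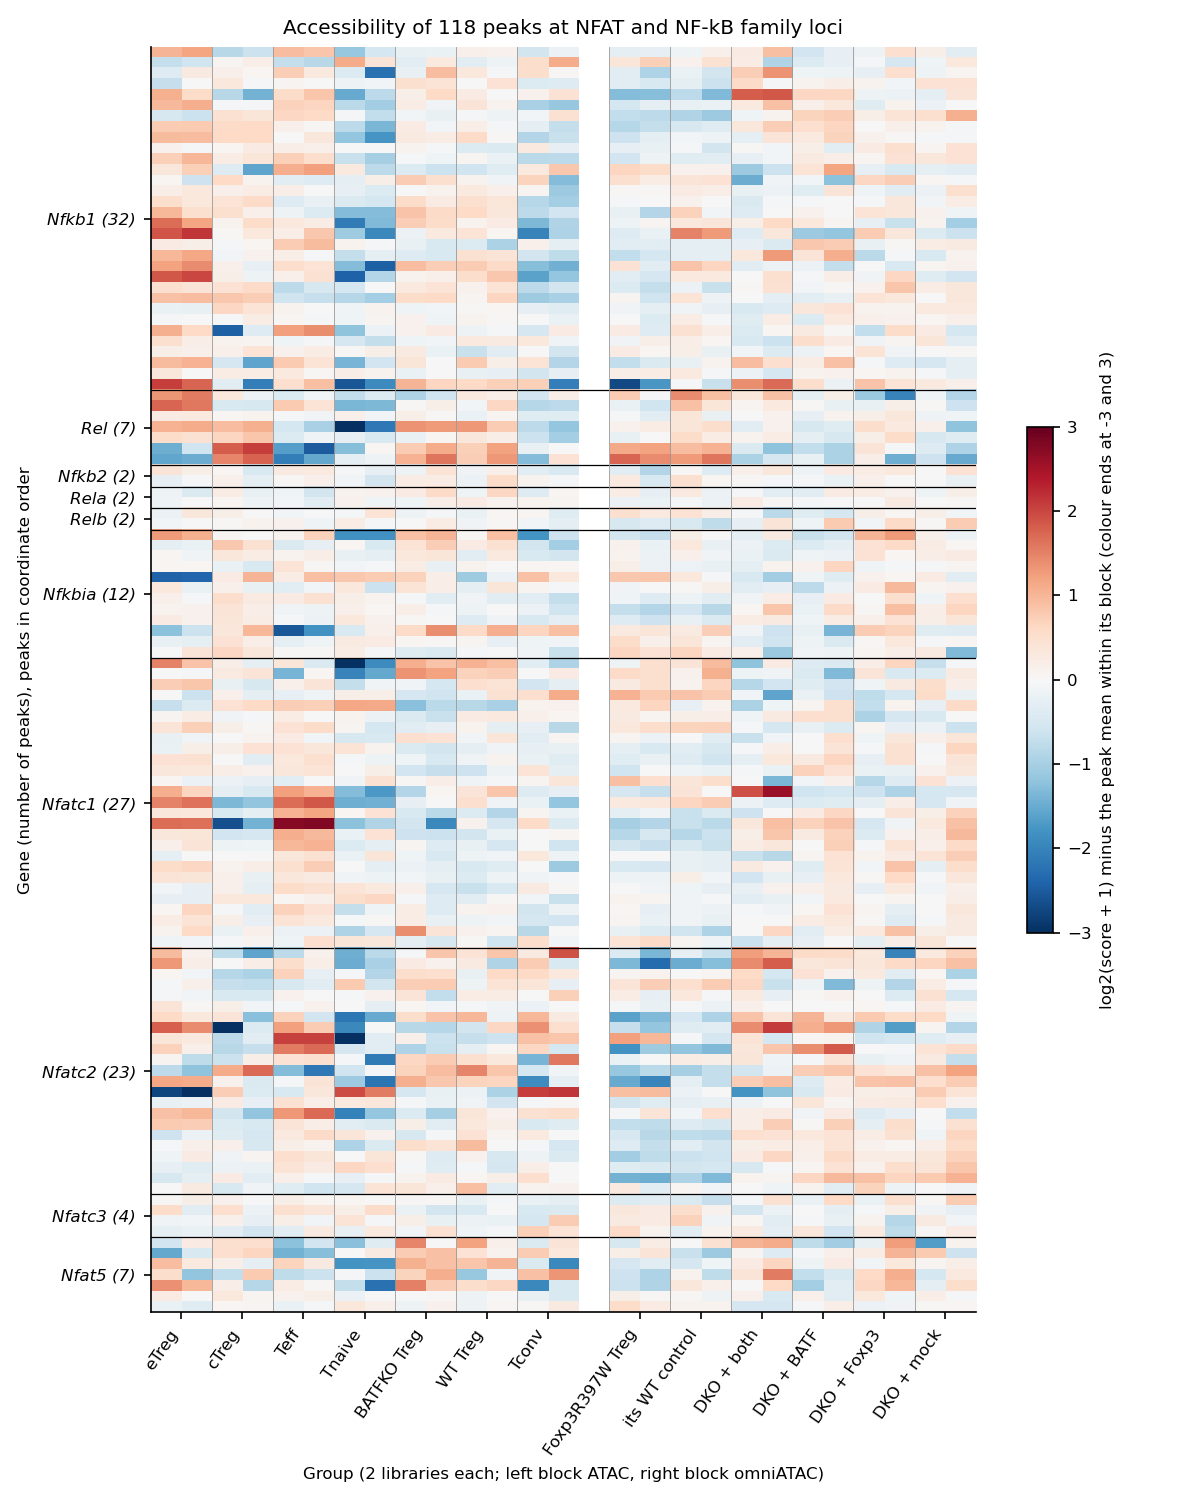
Scores of the 118 peaks (rows, grouped by gene) in the 26 libraries (columns, grouped by population), drawn as log2(score + 1) minus the peak's mean over the libraries of the same protocol, on a colour scale of -3 to 3. The eTreg and Teff columns share many high rows in Nfkb1, Nfatc1 and Nfatc2, while the rows of Nfatc3, Nfkb2, Rela and Relb stay pale in the sorted wild-type groups.

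In wild-type cells, called peaks at these loci were mostly higher in the effector populations. They were also mostly higher in Treg than in conventional cells, except between eTreg and Teff, where both directions were about as frequent. In all, 80 of the 118 peaks (67.8%) were called in at least 1 of the 12 comparisons, where 63.8% of all peaks were. Teff had 44 higher and 9 lower peaks than Tnaive, 44.9% of the 118, where 40.3% of all 69316 peaks were called (20.7% higher, 19.6% lower). The eTreg had 31 higher and 13 lower peaks than cTreg, 37.3%, where 37.1% of all peaks were called (19.7% higher, 17.4% lower). WT Treg had 25 higher and 7 lower peaks than WT Tconv, 27.1%, where 20% of all peaks were called (10.1% higher, 9.92% lower). Among resting cells, cTreg had 28 higher and 2 lower peaks than Tnaive, 25.4%, where 16.6% of all peaks were called (8.8% higher, 7.82% lower). Among effector cells, eTreg had 15 higher and 13 lower peaks than Teff, 23.7%, where 17.5% of all peaks were called (8.4% higher, 9.07% lower). The share called between eTreg and cTreg was thus that of all peaks, whereas the direction of the calls between cTreg and Tnaive, and between Teff and Tnaive, was less even than over all peaks. The median log2 change of the 118 peaks was 0.33 between Teff and Tnaive and 0.19 between cTreg and Tnaive, against -0.01 and -0.03 over all peaks.

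These counts have limits of 2 kinds. Without WT Treg replicate 1 the count between WT Treg and WT Tconv was 21, and the count between eTreg and Teff was 11 to 14 whichever of its 4 libraries was left out. A score also cannot tell a peak open in fewer cells from one less open in each cell. Between eTreg and cTreg, 4 B cell marker genes with peaks (of 7 listed) summed to 1036 to 1056 against 645 to 766, and 7 CD8 and NK cell marker genes to 831 to 908 against 2156 to 2198. Between Teff and Tnaive the CD8 and NK cell sums were 1232 to 1371 against 3221 to 3254. In the Treg against conventional comparisons they were 1385 to 1442 in WT Treg against 2361 to 2439 in WT Tconv, 2156 to 2198 in cTreg against 3221 to 3254 in Tnaive, and 831 to 908 in eTreg against 1232 to 1371 in Teff. The B cell sums were 826 to 1024 in WT Treg against 638 to 687 in WT Tconv, 645 to 766 in cTreg against 559 to 590 in Tnaive, and 1036 to 1056 in eTreg against 576 to 583 in Teff. The part of other cells in the results was not tested.

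Calls were counted per gene, beside the 63.8% of all peaks called in at least 1 comparison. Nfkb1 had 26 of 32 peaks called in at least 1 comparison, Nfatc1 20 of 27, Nfatc2 15 of 23, Nfkbia 7 of 12, Rel 6 of 7 and Nfat5 6 of 7. Nfatc3 (4 peaks), Nfkb2, Rela and Relb (2 peaks each) had none. Nfkb2 was the exception under quantile scaling, which called 1 of its peaks higher in WT Treg against WT Tconv, in Teff against Tnaive and in eTreg against cTreg, and 1 lower in Foxp3R397W Treg against their WT control. Gene bodies held 61.0% of the 118 peaks and 62.1% of all peaks. Of the gains, 33 of 44 (75.0%) between Teff and Tnaive, 21 of 31 (67.7%) between eTreg and cTreg and 18 of 28 (64.3%) between cTreg and Tnaive lay in gene bodies, where over all peaks the shares were 60.8%, 60.0% and 55.1%.

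**Figure D2:**
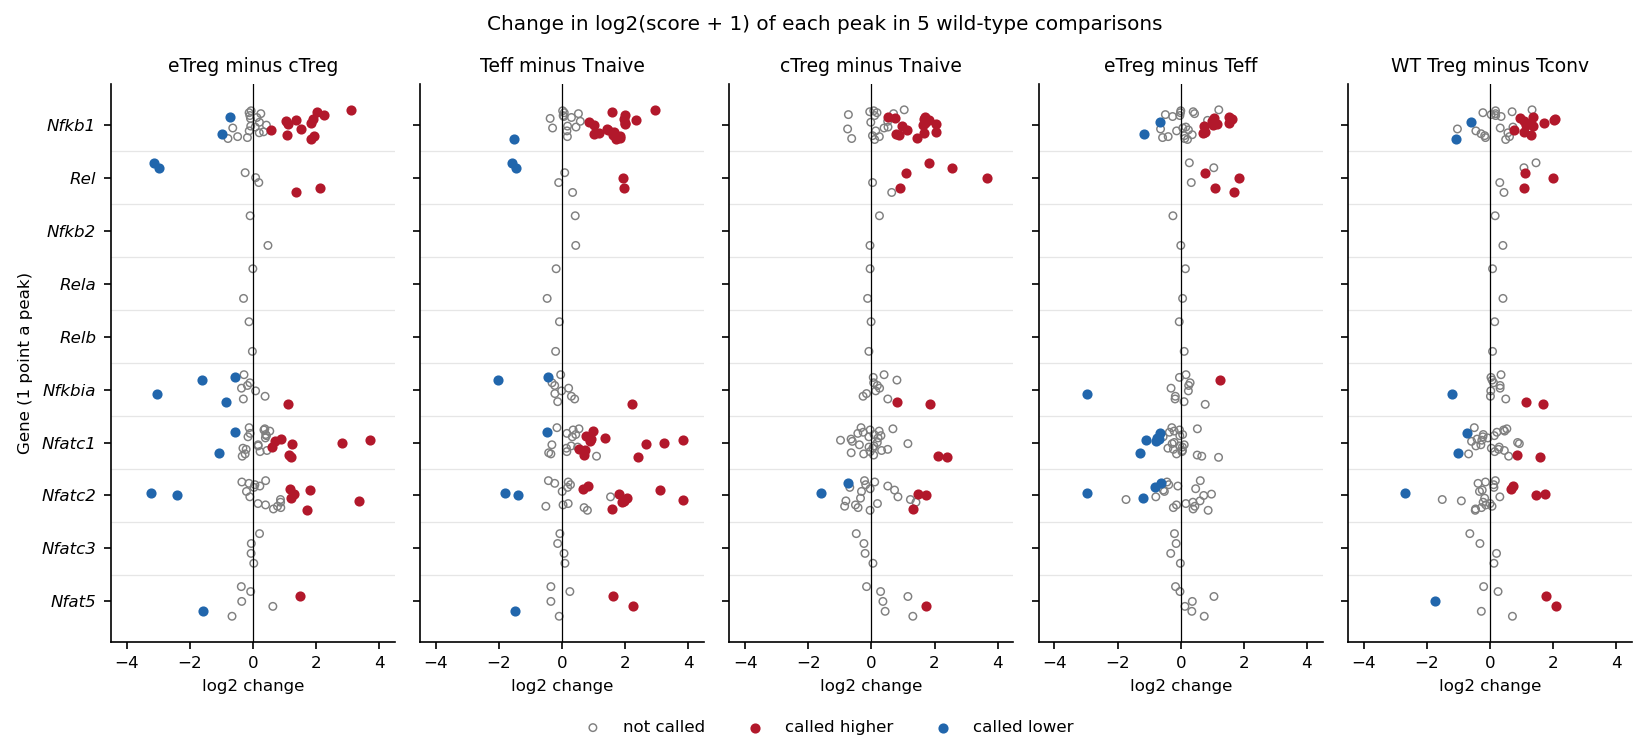
Log2 change of each of the 118 peaks, by gene, in 5 comparisons of wild-type groups (one panel each), with red points called higher, blue points called lower and open grey points not called. Nfkb1 and Rel lie mostly above 0 between cTreg and Tnaive (15 and 5 peaks called higher, 0 lower), and Nfatc1 has 12 called higher and 1 lower between Teff and Tnaive.

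The gains of the effector populations were largely at the same peaks in both lineages. Of 31 peaks higher in eTreg than in cTreg, 27 were also higher in Teff than in Tnaive, which is 87.1% of the eTreg gains and 61.4% of the 44 Teff gains. Over all 69316 peaks the same shares were 70.4% and 66.8%. The 27 comprised 12 peaks of Nfkb1, 7 of Nfatc1, 5 of Nfatc2 and 1 each of Nfat5, Rel and Nfkbia. A further 8 peaks were lower in both effector populations, and 1, Nfkb1 peak 7, was lower in eTreg and higher in Teff. Gains of Treg over conventional cells that were shared between the resting and the effector stage lay at Nfkb1 and Rel. Of 28 peaks higher in cTreg than in Tnaive, 12 were also higher in eTreg than in Teff, 42.9% of the resting gains and 80% of the 15 effector gains, against 44.6% and 46.8% over all peaks. These 12 were Nfkb1 peaks 8, 9, 15, 16, 17, 18, 22, 23 and 24 and Rel peaks 2, 4 and 5. WT Treg and WT Tconv are separate libraries. Of the 28 resting gains 71.4% were also higher in WT Treg than in WT Tconv, against 62.6% over all peaks. Of the 15 effector gains 80% were, against 56.3% over all peaks. Among the 12 shared peaks 11, all but Nfkb1 peak 8, were higher in WT Treg. For this last count no share over all peaks was taken.

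Nfkb1, which encodes a precursor of an NF-kB subunit, had the most peaks (32, of which 24 lie in its body at chr3:135584655-135691969). It had 12 peaks higher and 2 lower in WT Treg than in WT Tconv, 15 higher and 0 lower in cTreg than in Tnaive, 10 higher and 2 lower in eTreg than in Teff, 18 higher and 1 lower in Teff than in Tnaive, and 13 higher and 2 lower in eTreg than in cTreg. In this order, 10.1%, 8.8%, 8.4%, 20.7% and 19.7% of all peaks were higher. The shares lower were 9.92%, 7.82%, 9.07%, 19.6% and 17.4%. The median log2 change over its 32 peaks was 0.59 between WT Treg and WT Tconv, 0.61 between cTreg and Tnaive and 1.01 between Teff and Tnaive. Its peak nearest the high-coordinate end, peak 26 (chr3:135691282-135691682, mean score 425), was called in none of these, so the called peaks lay elsewhere in the locus.

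Some Nfkb1 peaks differed mainly between Treg and conventional cells. Nfkb1 peak 24 (chr3:135677056-135677456, in the gene body) scored 109 and 112 in the eTreg libraries, 103 and 99.2 in those of cTreg, 38.3 and 36.2 in Teff and 31.9 and 28.5 in Tnaive. In the libraries not sorted by state it scored 62.3 and 91.9 in WT Treg against 27.8 and 29.5 in WT Tconv. All 6 of these Treg libraries were above all 6 conventional libraries, by a log2 change of 1.71 (SE 0.26, adjusted p = 1.09e-05) for cTreg against Tnaive, 1.54 (SE 0.26, adjusted p = 6.00e-05) for eTreg against Teff and 1.37 (SE 0.26, adjusted p = 0.000216) for WT Treg against WT Tconv, and each call held when any 1 library was left out. Within a lineage it was 0.13 (adjusted p = 0.749) for eTreg against cTreg and 0.30 (adjusted p = 0.389) for Teff against Tnaive. Nfkb1 peak 23 (chr3:135675473-135675873) scored 126 and 119 in eTreg against 52.3 and 64.6 in Teff, a log2 change of 1.07 (SE 0.25, adjusted p = 0.00262) that was not called without Teff replicate 1 (0.92, adjusted p = 0.0524). The groups did not overlap. Nfkb1 peak 8 (chr3:135604630-135605030) varied with both lineage and state: it scored 179 and 183 in the eTreg libraries, 156 and 159 in those of cTreg, 116 and 107 in Teff and 60.0 and 40.2 in Tnaive. Tnaive was lowest and Teff lay between Tnaive and both Treg groups, and the log2 change was 1.66 (SE 0.21, adjusted p = 1.00e-06) for cTreg against Tnaive.

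Other Nfkb1 peaks followed the effector state in both lineages. Nfkb1 peak 1 (chr3:135579183-135579583, 5072 bp beyond the low-coordinate end) scored 162 and 181 in the eTreg libraries, 44.4 and 50.7 in those of cTreg, 152 and 143 in Teff and 35.8 and 54.4 in Tnaive. Both effector groups stood above both resting groups, and the log2 change between eTreg and cTreg was 1.83 (SE 0.29, adjusted p = 8.58e-06). Nfkb1 peak 6 (chr3:135594250-135594650), chosen after its values were seen, scored 474 and 513 in the eTreg libraries, 234 and 229 in those of cTreg, 388 and 378 in Teff and 137 and 115 in Tnaive. The effector gain was 1.09 (SE 0.19, adjusted p = 4.12e-05) on the log2 scale for eTreg against cTreg and 1.60 (SE 0.19, adjusted p = 8.96e-08) for Teff against Tnaive. Nfkb1 peak 32 (chr3:135733050-135733450, 41081 bp beyond the high-coordinate end), also chosen after its values were seen, scored 56.5 and 44.5 in the eTreg libraries, 9.78 and 2.2 in those of cTreg, 18.3 and 24.5 in Teff and 1.28 and 2.59 in Tnaive. The resting groups rest on few reads here, and the log2 changes of the effector over the resting groups, in Treg and in conventional cells, were 3.12 (SE 0.60, adjusted p = 0.000116) and 2.95 (SE 0.60, adjusted p = 0.000199).

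At other Nfkb1 peaks eTreg stood above every other sorted wild-type group. Nfkb1 peak 20 (chr3:135665794-135666194), the gene's highest on average, scored 962 and 1076 in the eTreg libraries, 455 and 526 in those of cTreg, 557 and 467 in Teff and 294 and 398 in Tnaive, and 665 and 629 in WT Treg against 331 and 286 in WT Tconv. Both eTreg libraries were above those of the other 5 groups. Its log2 change was 1.05 (SE 0.26, adjusted p = 0.00184) for eTreg against cTreg, 1.07 (SE 0.26, adjusted p = 0.00352) for WT Treg against WT Tconv and 0.99 (SE 0.26, adjusted p = 0.00705) for eTreg against Teff. The last was not called without eTreg replicate 2 (0.91, adjusted p = 0.0706) or Teff replicate 2 (0.87, adjusted p = 0.0900). Nfkb1 peak 18 (chr3:135658697-135659097), named after its values were seen because its mean score of 24.9 is below the table's median of 48.6, scored 86.4 and 104 in the eTreg libraries, 23.1 and 28.7 in those of cTreg, 26.1 and 40.1 in Teff and 10.2 and 5.18 in Tnaive. Again eTreg was highest and Tnaive lowest, and the log2 change between eTreg and cTreg was 1.84 (SE 0.42, adjusted p = 0.000878).

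A few Nfkb1 peaks were lower in Treg than in conventional cells. Nfkb1 peak 19 (chr3:135662453-135662853) scored 74.5 and 51 in WT Treg against 109 and 81.8 in WT Tconv, a log2 change of -0.61 (SE 0.21, adjusted p = 0.0416). That call was lost under edgeR (adjusted p = 0.0614), with only the 2 groups in the fit (adjusted p = 0.140), and without WT Treg replicate 2 (-0.34, adjusted p = 0.426) or WT Tconv replicate 1 (-0.40, adjusted p = 0.332). Nfkb1 peak 7 (chr3:135602791-135603191) scored 98.6 and 87.8 in eTreg against 212 and 210.3 in Teff, a log2 change of -1.18 (SE 0.22, adjusted p = 0.000201), and its groups did not overlap. Against the resting cells of its lineage it was lower in eTreg (-0.97, SE 0.22, adjusted p = 0.000609) and higher in Teff (1.0, SE 0.22, adjusted p = 0.000412). In cTreg against Tnaive it was higher (log2 change 0.79, SE 0.22, adjusted p = 0.00941), a call lost without cTreg replicate 1 (adjusted p = 0.0790) or Tnaive replicate 2 (0.45, adjusted p = 0.295).

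Rel encodes c-Rel, the subunit most tied to Treg biology, and 5 of its 7 peaks were higher in cTreg than in Tnaive, 4 were higher in eTreg than in Teff, and 3 were higher in WT Treg than in WT Tconv, with none lower in these 3 comparisons. In this order, 8.8%, 8.4% and 10.1% of all peaks were higher, and 7.82%, 9.07% and 9.92% lower. Rel peak 2 (chr11:23754290-23754690), the single peak inside the gene body at chr11:23736847-23770969, scored 164 and 145 in the eTreg libraries, 34.7 and 34.2 in those of cTreg, 82.7 and 63.6 in Teff and 17.9 and 18.1 in Tnaive. No pair of groups overlapped, with eTreg highest, then Teff, cTreg and Tnaive. Its log2 change was 2.13 (SE 0.28, adjusted p = 5.73e-07) for eTreg against cTreg and 1.95 (SE 0.28, adjusted p = 1.87e-06) for Teff against Tnaive, and both calls held when any 1 library was left out. Between eTreg and Teff it was 1.08 (SE 0.28, adjusted p = 0.00683), and this call was lost without eTreg replicate 1 (0.99, adjusted p = 0.0732) or Teff replicate 2 (0.89, adjusted p = 0.114).

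The upstream peaks of Rel, named after their values were seen, did not share the pattern of peak 2. Rel peak 4 (chr11:23778662-23779062, 7693 bp upstream) scored 66.5 and 70.2 in the eTreg libraries, 61.3 and 67.2 in those of cTreg, 21.8 and 15.7 in Teff and 2.55 and 6.48 in Tnaive, and 79.4 and 55.1 in WT Treg against 18 and 13.6 in WT Tconv. All Treg libraries were above all conventional libraries, and eTreg and cTreg overlapped. On the log2 scale the change was 3.66 (SE 0.37, adjusted p = 1.31e-08) for cTreg against Tnaive, 1.83 (SE 0.37, adjusted p = 0.000599) for eTreg against Teff and 2.01 (SE 0.37, adjusted p = 0.000178) for WT Treg against WT Tconv. It was also higher in Teff than in Tnaive (1.92 (SE 0.37, adjusted p = 0.000108)). Rel peak 5 (chr11:23782022-23782422, 11053 bp upstream) scored 162 and 184 in cTreg against 86.8 and 73.9 in Tnaive, a log2 change of 1.10 (SE 0.22, adjusted p = 0.000518). Rel peak 6 (chr11:23801892-23802292, 30923 bp upstream) scored 11.1 and 21.1 in the eTreg libraries, 116 and 139 in those of cTreg, 9.58 and 4.89 in Teff and 12.8 and 33.7 in Tnaive. Here cTreg stood above every other sorted wild-type group. The log2 change was -2.97 (SE 0.41, adjusted p = 9.16e-07) for eTreg against cTreg and 2.55 (SE 0.41, adjusted p = 2.56e-05) for cTreg against Tnaive. For Teff against Tnaive it was -1.47 (SE 0.41, adjusted p = 0.00417), a call lost without Tnaive replicate 2 (-0.80, adjusted p = 0.187) or Teff replicate 2 (-1.05, adjusted p = 0.102). Rel peak 7 (chr11:23806054-23806454, 35085 bp upstream) was likewise highest in cTreg, with 6.65 and 7.02 in the eTreg libraries, 61.3 and 76 in those of cTreg, 4.35 and 6.85 in Teff and 17.9 and 19.4 in Tnaive, and its log2 change between eTreg and cTreg was -3.15 (SE 0.53, adjusted p = 2.19e-05). The gene's promoter peak 3, whose sequence is shown above, was called in none of these comparisons.

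**Figure D3:**
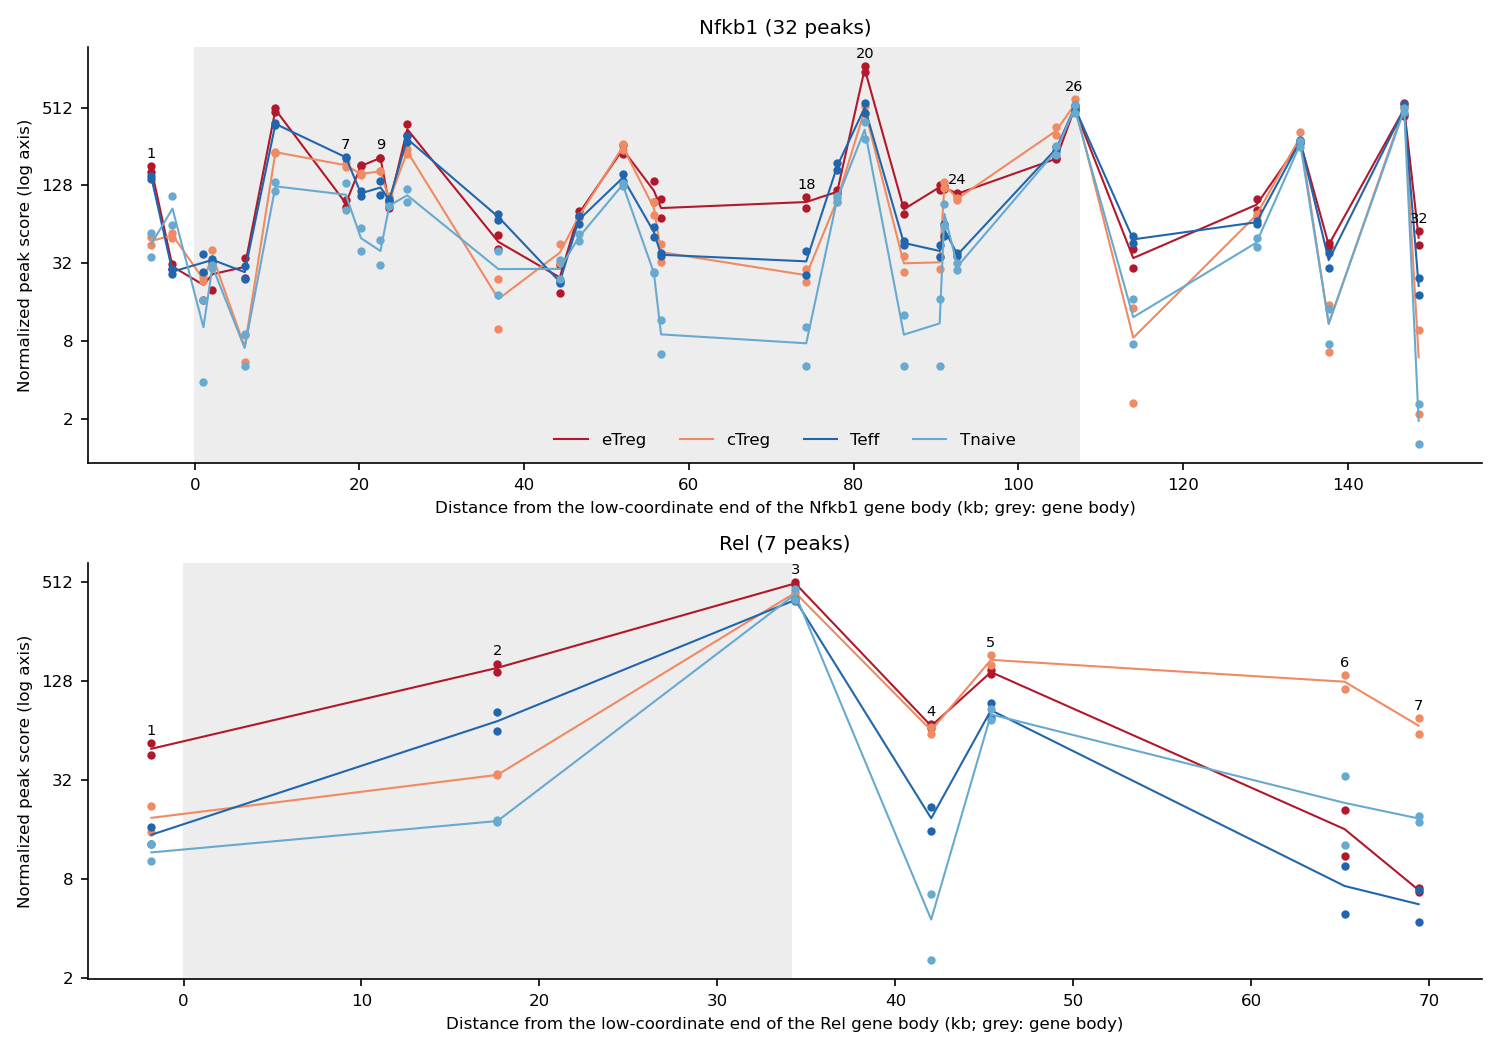
Scores (log axis) of the 32 Nfkb1 peaks and the 7 Rel peaks against distance in kb from the low-coordinate end of the gene body (shaded grey), in eTreg, cTreg, Teff and Tnaive, where lines join group means and dots are libraries. At Rel the cTreg line is highest at the 2 peaks farthest upstream, and the eTreg line is highest at the peak inside the gene body (164 and 145).

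Nfkb2, Rela and Relb, the other subunit genes, had no peak called between the wild-type groups with the scores as deposited. Under quantile scaling 1 of the 2 Nfkb2 peaks was called higher in each of 3 comparisons, as given above. Relb peak 2 (chr7:19628551-19628951) scored 875 and 930.5 in the eTreg libraries, 963 and 1001 in those of cTreg, 1024 and 849 in Teff and 1082 and 904 in Tnaive. Nfkb2 peak 1 (chr19:46304645-46305045), whose promoter holds 3 kappaB matches, scored 252 and 218 in the eTreg libraries, 201 and 139.97 in those of cTreg, 233 and 235 in Teff and 186 and 161 in Tnaive. Both effector groups were above both resting groups at this Nfkb2 peak, but the changes were not called (0.48, SE 0.21, adjusted p = 0.0805 for eTreg against cTreg). Rela peak 1 (chr19:5637239-5637639) scored 125 and 103 in the eTreg libraries, 164 and 119 in those of cTreg, 126 and 93.9 in Teff and 151 and 153 in Tnaive, with overlapping Treg groups. In simulated data where 100 peaks changed 2-fold and 100 changed 4-fold, 29 and 100 of them were recovered. Far more peaks differed in the real comparisons, with 37.1% of all peaks called between eTreg and cTreg. The simulation therefore does not give the share of changes detectable at these genes. An uncalled peak is not shown to be unchanged.

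Nfkbia, the gene of the inhibitor IkB-alpha, had 12 peaks, of which 1 lies in its short body (chr12:55489409-55492647), and calls in both directions. Between eTreg and cTreg 1 peak was higher and 4 were lower, where 19.7% and 17.4% of all peaks were. Nfkbia peak 1 (chr12:55460805-55461205, 28204 bp downstream), chosen after its values were seen, scored 62 and 53.8 in the eTreg libraries, 26.7 and 25.3 in those of cTreg, 27 and 41.1 in Teff and 6.39 and 6.48 in Tnaive. Tnaive was lowest and eTreg highest, and the log2 change was 2.21 (SE 0.35, adjusted p = 6.23e-06) for Teff against Tnaive, 1.86 (SE 0.35, adjusted p = 0.000203) for cTreg against Tnaive and 1.68 (SE 0.35, adjusted p = 0.000638) for WT Treg against WT Tconv. Nfkbia peak 5 (chr12:55474079-55474479, 14930 bp downstream) scored 2.22 and 2.34 in the eTreg libraries, 19.6 and 34.2 in those of cTreg, 19.2 and 31.3 in Teff and 29.4 and 28.5 in Tnaive. Only eTreg stood apart among these 4 groups, and the log2 change was -3.04 (SE 0.43, adjusted p = 1.50e-06) for eTreg against cTreg and -2.96 (SE 0.43, adjusted p = 8.65e-06) for eTreg against Teff. Nfkbia peak 2 (chr12:55462644-55463044) scored 49.9 and 52.7 in eTreg against 106 and 82.7 in cTreg, a log2 change of -0.86 (SE 0.26, adjusted p = 0.00899). The call was lost without eTreg replicate 1 (-0.82, adjusted p = 0.0571) or cTreg replicate 1 (-0.68, adjusted p = 0.113). Nfkbia peak 10 (chr12:55497725-55498125, 5078 bp upstream), chosen after its values were seen, was lower in both effector groups, with 12.2 and 18.7 in the eTreg libraries, 38.2 and 60.6 in those of cTreg, 4.35 and 7.83 in Teff and 21.7 and 33.7 in Tnaive. Its log2 change was -1.61 (SE 0.41, adjusted p = 0.00225) for eTreg against cTreg, which was not called without cTreg replicate 2 (-1.28, adjusted p = 0.0575), and -2.03 (SE 0.41, adjusted p = 0.000178) for Teff against Tnaive.

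Nfatc1, a calcium-driven NFAT whose own start site is inducible, had 27 peaks, and those called with the effector state were mostly higher. In Teff 12 peaks were higher and 1 lower than in Tnaive, where 20.7% and 19.6% of all peaks were. In eTreg 8 were higher and 2 lower than in cTreg, where 19.7% and 17.4% of all peaks were. Nfatc1 peak 16 (chr18:80684296-80684696, in the gene body) scored 198 and 194 in the eTreg libraries, 8.89 and 22 in those of cTreg, 411 and 426 in Teff and 25.5 and 32.4 in Tnaive. Both effector groups were far above both resting groups, and Teff was above eTreg. On the log2 scale the change was 3.71 (SE 0.38, adjusted p = 1.67e-08) for eTreg against cTreg and 3.82 (SE 0.38, adjusted p = 7.10e-09) for Teff against Tnaive. For eTreg against Teff it was -1.09 (SE 0.38, adjusted p = 0.0455), a call that was lost when any 1 of its 4 libraries was left out (adjusted p = 0.143 to 0.178). Nfatc1 peak 14 (chr18:80671610-80672010), chosen after its values were seen, had the same shape at a lower level, with 76.4 and 84.3 in the eTreg libraries, 9.78 and 11 in those of cTreg, 86.2 and 99.8 in Teff and 8.94 and 9.07 in Tnaive. The gain on the log2 scale was 2.84 (SE 0.36, adjusted p = 2.87e-07) for eTreg against cTreg and 3.23 (SE 0.36, adjusted p = 2.30e-08) for Teff against Tnaive.

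Against Teff, eTreg had 0 Nfatc1 peaks higher and 6 lower, where 8.4% of all peaks were higher and 9.07% lower. Nfatc1 peak 5 (chr18:80597593-80597993, 8212 bp beyond the low-coordinate end) scored 98.6 and 121 in the eTreg libraries, 217 and 242 in those of cTreg, 267 and 265 in Teff and 361 and 355 in Tnaive, and 89.2 and 81.7 in WT Treg against 173 and 177 in WT Tconv. Treg libraries were below conventional ones at each stage, and eTreg was the lowest of the 4 groups sorted by state. The log2 change was -1.28 (SE 0.27, adjusted p = 0.00106) for eTreg against Teff, -1.07 (SE 0.27, adjusted p = 0.00246) for eTreg against cTreg and -1.03 (SE 0.27, adjusted p = 0.00682) for WT Treg against WT Tconv, of which the last was not called without WT Treg replicate 2 (-0.97, adjusted p = 0.0584). Nfatc1 peak 22 (chr18:80704838-80705238) scored 44 and 51 in WT Treg against 84.9 and 72.7 in WT Tconv, a log2 change of -0.72 (SE 0.23, adjusted p = 0.0281). The call was lost when any 1 of the 4 libraries was left out (adjusted p = 0.0524 to 0.179), under edgeR (adjusted p = 0.0582) and with only these groups in the fit (adjusted p = 0.0869). The highest Nfatc1 peak on average, peak 10 (chr18:80611883-80612283), scored 801 and 819 in eTreg against 584 and 475 in cTreg, a log2 change of 0.62 (SE 0.21, adjusted p = 0.0174) that was lost without eTreg replicate 1 or 2 or cTreg replicate 2 (adjusted p = 0.0685 to 0.183).

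Nfatc2, an NFAT that resting T cells already express, had 23 peaks. Of these, 9 were higher and 2 lower in Teff than in Tnaive, and 6 higher and 2 lower in eTreg than in cTreg. In eTreg 0 were higher and 4 lower than in Teff. In this order, 20.7%, 19.7% and 8.4% of all peaks were higher, and 19.6%, 17.4% and 9.07% lower. Nfatc2 peak 13 (chr2:168539821-168540221, in the gene body) scored 88.6 and 86.6 in the eTreg libraries, 42.7 and 28.7 in those of cTreg, 37.4 and 51.8 in Teff and 17.9 and 7.77 in Tnaive, and 62.3 and 62.3 in WT Treg against 9.8 and 31.8 in WT Tconv. Of the 4 groups sorted by state eTreg was highest and Tnaive lowest, while cTreg and Teff overlapped, with a log2 change of 1.81 (SE 0.37, adjusted p = 0.000202) for Teff against Tnaive. For WT Treg against WT Tconv it was 1.75 (SE 0.37, adjusted p = 0.000791), and the call was lost without WT Tconv replicate 1 (0.95, adjusted p = 0.0824). Nfatc2 peak 17 (chr2:168574963-168575363), the gene's highest on average, scored 541 and 516 in eTreg against 235 and 228 in cTreg, a log2 change of 1.18 (SE 0.23, adjusted p = 0.00014).

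Nfatc2 peak 14 (chr2:168553681-168554081), in the same gene body and chosen after its values were seen, ran the other way. It scored 2.22 and 1.17 in the eTreg libraries, 35.5 and 15.4 in those of cTreg, 14.8 and 26.4 in Teff and 83 and 63.5 in Tnaive, and 18.3 and 10.2 in WT Treg against 91.4 and 95.4 in WT Tconv. The eTreg were almost closed here, Tnaive and WT Tconv were the most open, and cTreg and Teff overlapped. The log2 change was -3.21 (SE 0.42, adjusted p = 4.03e-07) for eTreg against cTreg, -2.98 (SE 0.42, adjusted p = 5.63e-06) for eTreg against Teff and -2.68 (SE 0.42, adjusted p = 1.97e-05) for WT Treg against WT Tconv. It was also lower in Teff than in Tnaive (-1.82 (SE 0.42, adjusted p = 0.000736)). For cTreg against Tnaive it was -1.59 (SE 0.42, adjusted p = 0.00694), and that call was lost without cTreg replicate 2 (-1.01, adjusted p = 0.214) or Tnaive replicate 1 (-1.40, adjusted p = 0.0804). Nfatc2 peak 21 (chr2:168589592-168589992) was also lower in cTreg, with 199.95 and 198 against 349 and 324 in Tnaive, a log2 change of -0.75 (SE 0.19, adjusted p = 0.00613) that was not called without Tnaive replicate 1 (-0.70, adjusted p = 0.0602).

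Nfat5, the osmotic-stress member, had 7 peaks and at most 3 calls in any comparison. Nfat5 peak 5 (chr8:107291275-107291675, 1760 bp upstream) scored 68.4 and 72.5 in WT Treg against 11.4 and 34.1 in WT Tconv, a log2 change of 1.77 (SE 0.45, adjusted p = 0.00538). The call was lost without WT Tconv replicate 1 (1.03, adjusted p = 0.167). In eTreg it scored 122 and 94.8 against 54.2 and 25.3 in cTreg, a log2 change of 1.51 (SE 0.45, adjusted p = 0.00929) that was lost without eTreg replicate 1 (adjusted p = 0.0774) or cTreg replicate 2 (adjusted p = 0.174). Nfatc3 peak 1 (chr8:106059226-106059626), over the start of the gene, scored 914 and 1001 in the eTreg libraries, 979 and 897 in those of cTreg, 1008 and 922 in Teff and 923 and 890.1 in Tnaive, and was called nowhere. Small losses in Teff against Tnaive were called at Nfatc1 peak 23 (log2 change -0.47, SE 0.18, adjusted p = 0.0378) and Nfkbia peak 11 (log2 change -0.46, SE 0.19, adjusted p = 0.0498), and both were lost under quantile scaling (adjusted p = 0.0567 and 0.134) and when any 1 library was left out.

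**Figure D4:**
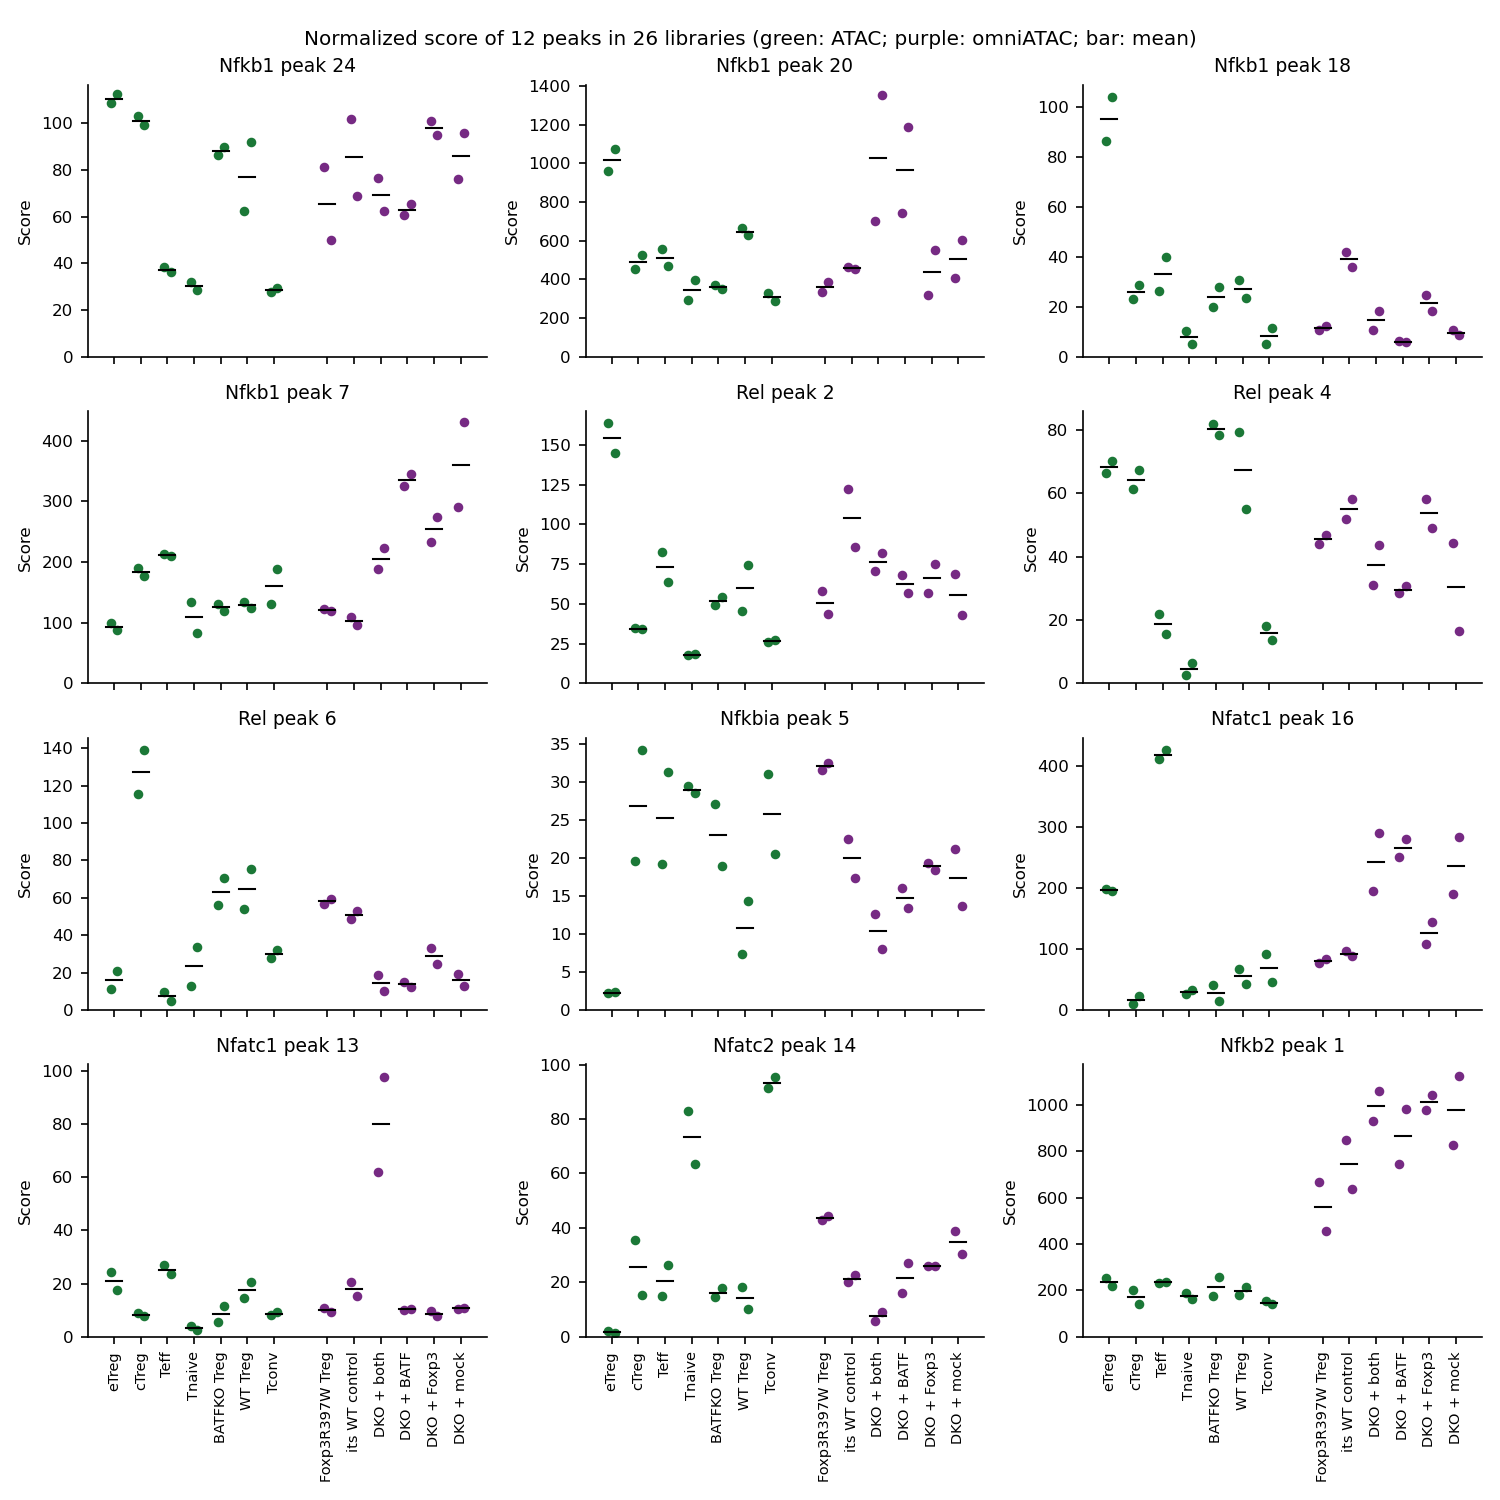
Scores of 12 peaks of Nfkb1, Rel, Nfkbia, Nfatc1, Nfatc2 and Nfkb2 in the 13 groups, with points for libraries, bars for group means, green for ATAC-seq and purple for omniATAC. Nfatc1 peak 16 is highest in Teff (411 and 426), Rel peak 6 in cTreg (116 and 139), and Nfatc1 peak 13 in DKO Treg with Foxp3BATFRV (62.1 and 97.9).

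Loss of BATF, a factor that pairs with JUN proteins at AP-1 sites, left none of the 118 peaks called in BATFKO Treg against WT Treg, where 1.49% of all peaks were called by limma (0.062% higher, 1.43% lower). At an unadjusted p under 0.05, 4 of the 118 were higher and 7 lower; edgeR called 0, quantile scaling 4 (2 higher, 2 lower), and leaving out BATFKO Treg replicate 1 gave 1. Nfkb1 peak 20 scored 370.3 and 351 in BATFKO Treg against 665 and 629 in WT Treg. These groups did not overlap, but the log2 change of -0.84 (SE 0.26, adjusted p = 0.134) was not called; with only these groups in the fit its adjusted p was 0.000806, and under quantile scaling 0.00584. Nfatc1 peak 6 (chr18:80600498-80600898) scored 45.9 and 39.2 in BATFKO Treg against 74.5 and 76.6 in WT Treg, with a log2 change of -0.82 (SE 0.24, adjusted p = 0.0905), and it was called under quantile scaling (-0.98, adjusted p = 0.0143). Nfatc1 peak 16 scored 41.5 and 15.2 in BATFKO Treg against 67.2 and 42.9 in WT Treg, with a log2 change of -1.06 (SE 0.38, adjusted p = 0.254) and, without BATFKO Treg replicate 1, of -1.76 (adjusted p = 0.0195). These 3 peaks were chosen after their values were seen. Over all peaks the split was 43 higher and 989 lower, and under quantile scaling 504 higher and 2007 lower.

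The Foxp3R397W substitution lowered 2 of the 118 peaks (1.69%) and raised none, where 2.63% of all peaks were called (0.776% higher, 1.85% lower). Under edgeR the counts were 2 higher and 6 lower, where 9.09% of all peaks were called, and with only these groups in the fit 3 higher and 5 lower, where 9.48% were. Rel peak 2 scored 58 and 43.4 in Foxp3R397W Treg against 122 and 85.6 in their WT control, a log2 change of -1.01 (SE 0.28, adjusted p = 0.0468). Nfkb1 peak 18 scored 10.7 and 12.4 in Foxp3R397W Treg against 42 and 36.1 in their WT control, a log2 change of -1.68 (SE 0.42, adjusted p = 0.0257). Neither pair of groups overlapped, and both peaks were higher in eTreg than in cTreg among wild-type cells. Both calls were lost when any 1 of the 4 libraries was left out, with log2 changes of -0.76 to -1.27 at Rel peak 2 (adjusted p = 0.0838 to 0.476) and of -1.57 to -1.78 at Nfkb1 peak 18 (adjusted p = 0.131 to 0.240). Among peaks higher in Treg than in conventional cells, Rel peak 4 and Nfkb1 peak 24 were not called here: Rel peak 4 scored 43.9 and 47 in Foxp3R397W Treg against 51.8 and 58.2 in the control, and Nfkb1 peak 24 scored 81 and 50.1 against 102 and 68.9. Their log2 changes were -0.27 (adjusted p = 0.888) and -0.39 (adjusted p = 0.612). Summed scores of the 4 naive marker genes were 18731 to 20929 in Foxp3R397W Treg against 14024 to 16958 in their control, those of the CD8 and NK cell genes 1607 to 1780 against 1251 to 1285, and those of the B cell genes 628 to 683 against 828 to 838. Their part in these results was not tested.

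In DKO Treg each virus alone called few of these peaks, and the virus with both factors called 20. Foxp3RV called 0 of 118 by limma against mockRV, where 1.82% of all peaks were called (1.01% higher, 0.814% lower); 8 were higher and 6 lower at an unadjusted p under 0.05, edgeR called 1, and leaving out mockRV replicate 1 or Foxp3RV replicate 1 gave 3 or 1. Rel peak 5 scored 82.8 and 109 with Foxp3RV against 52.7 and 56.7 with mockRV (log2 change 0.79, SE 0.22, adjusted p = 0.0598), and it was called without Foxp3RV replicate 1 (0.98, adjusted p = 0.0394). Nfkbia peak 1 scored 118 and 141 with Foxp3RV against 64.3 and 50.8 with mockRV (log2 change 1.16, SE 0.35, adjusted p = 0.0793), and it was called under edgeR (adjusted p = 0.0175). BATFRV called 1 higher and 0 lower, where 3.49% of all peaks were called (3.2% higher, 0.291% lower). Foxp3BATFRV called 6 higher and 14 lower (16.9%), where 23.3% of all peaks were called (12.9% higher, 10.5% lower). Without mockRV replicate 2 its count was 11 and without Foxp3BATFRV replicate 2 it was 12. The 3 comparisons share the mockRV libraries.

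Nfkb1 peak 20 was the single peak called with BATFRV. It scored 700.03 and 1355 with Foxp3BATFRV, 741 and 1189 with BATFRV, 322 and 549.5 with Foxp3RV and 408 and 603 with mockRV. Both groups that received BATF were above both that did not, and the replicate 2 libraries were higher in every group. The log2 change was 0.92 (SE 0.26, adjusted p = 0.0433) for BATFRV and 0.97 (SE 0.26, adjusted p = 0.00611) for Foxp3BATFRV, each against mockRV. Both calls were lost without mockRV replicate 1 (0.64, adjusted p = 0.338, and 0.69, adjusted p = 0.116), and without the second library of the virus (0.58, adjusted p = 0.386, and 0.50, adjusted p = 0.227). For Foxp3BATFRV against Foxp3RV the log2 change was 1.21 (SE 0.26, adjusted p = 0.00122). Without Foxp3BATFRV replicate 2 it was 0.73 and was not called.

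Gains with both factors were at peaks of Nfkb1, Nfatc1, Nfatc2 and Nfat5. Nfatc1 peak 13 (chr18:80649088-80649488, in the gene body) scored 62.1 and 97.9 with Foxp3BATFRV, 9.9 and 10.6 with BATFRV, 9.68 and 7.67 with Foxp3RV and 10.5 and 10.8 with mockRV. Its mean score of 17.7 is below the table's median of 48.6. The BATFRV, Foxp3RV and mockRV libraries held 5 to 11 reads each at this peak. It was raised with both factors and close to the mockRV scores with either alone, a log2 change of 2.76 (SE 0.44, adjusted p = 2.07e-05) against mockRV. The call held when any 1 library was left out, and the log2 change was 2.82 (SE 0.44, adjusted p = 5.97e-05) against BATFRV and 3.04 (SE 0.44, adjusted p = 8.88e-06) against Foxp3RV. In wild-type cells the same peak scored 24.4 and 17.6 in eTreg against 8.89 and 7.71 in cTreg. Nfkb1 peak 5 (chr3:135590516-135590916), chosen after its values were seen, scored 126 and 129 with Foxp3BATFRV, 54.4 and 54.7 with BATFRV, 31.2 and 30.7 with Foxp3RV and 28.5 and 45.9 with mockRV. The groups ordered as both factors, then BATF, then the other 2, with a log2 change of 1.79 (SE 0.37, adjusted p = 0.000479) for Foxp3BATFRV against mockRV and 2.01 (SE 0.37, adjusted p = 0.000196) against Foxp3RV. Against BATFRV it was 1.21 (SE 0.37, adjusted p = 0.0254), and that call was lost when any 1 of its 4 libraries was left out (adjusted p = 0.0954 to 0.116). Nfatc2 peak 8 (chr2:168491770-168492170), also chosen after its values were seen, scored 46.6 and 76 with Foxp3BATFRV, 37.1 and 43.2 with BATFRV, 8.61 and 4.6 with Foxp3RV and 17.9 and 8.8 with mockRV. Its log2 change was 3.04 (SE 0.67, adjusted p = 0.0013) against Foxp3RV, and 2.15 (SE 0.67, adjusted p = 0.017) against mockRV, where the call was lost without mockRV replicate 2 (1.68, adjusted p = 0.181) or Foxp3BATFRV replicate 2 (1.81, adjusted p = 0.139) and under quantile scaling (adjusted p = 0.0550). Nfkb1 peak 6 scored 279 and 416 with Foxp3BATFRV against 202 and 229 with mockRV, a log2 change of 0.66 (SE 0.19, adjusted p = 0.0116) that was lost without mockRV replicate 1 (0.57, adjusted p = 0.0893) or Foxp3BATFRV replicate 2 (0.37, adjusted p = 0.273).

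The 14 losses with both factors were spread over 5 genes, with 4 each at Nfkb1, Nfatc1 and Nfatc2 and 1 each at Nfkbia and Nfat5. Nfatc1 peak 19 (chr18:80691754-80692154) scored 126 and 113 with Foxp3BATFRV, 214 and 273 with BATFRV, 217 and 238 with Foxp3RV and 269 and 334 with mockRV. Foxp3BATFRV was below the 3 other groups, with a log2 change of -1.32 (SE 0.20, adjusted p = 1.01e-05) against mockRV, -1.01 (SE 0.20, adjusted p = 0.000824) against BATFRV and -0.92 (SE 0.20, adjusted p = 0.00129) against Foxp3RV, and these calls held when any 1 library was left out. Nfatc2 peak 14, the peak almost closed in eTreg, scored 5.83 and 9.21 with Foxp3BATFRV, 16.1 and 26.9 with BATFRV, 25.8 and 26.1 with Foxp3RV and 39 and 30.3 with mockRV. Its log2 change for Foxp3BATFRV against mockRV was -2.08 (SE 0.42, adjusted p = 0.000336). Nfkb1 peak 7 scored 188 and 222 with Foxp3BATFRV against 289.9 and 431 with mockRV (log2 change -0.79, SE 0.22, adjusted p = 0.00719), a call lost without Foxp3BATFRV replicate 1 (-0.67, adjusted p = 0.0766) or mockRV replicate 2 (-0.50, adjusted p = 0.205). Nfatc1 peak 3 (chr18:80554850-80555250) fell to 32 and 39.2 with Foxp3BATFRV, against 85.4 and 67.4 with mockRV (log2 change -1.08, SE 0.28, adjusted p = 0.00389), and was not called without mockRV replicate 1 (-0.91, adjusted p = 0.0554). Nfatc2 peak 21 fell to 290.3 and 397 with Foxp3BATFRV, against 527 and 719 with mockRV (log2 change -0.86, SE 0.19, adjusted p = 0.00131), and was not called without Foxp3BATFRV replicate 1 (-0.63, adjusted p = 0.0512) or mockRV replicate 2 (-0.63, adjusted p = 0.0614).

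**Figure D5:**
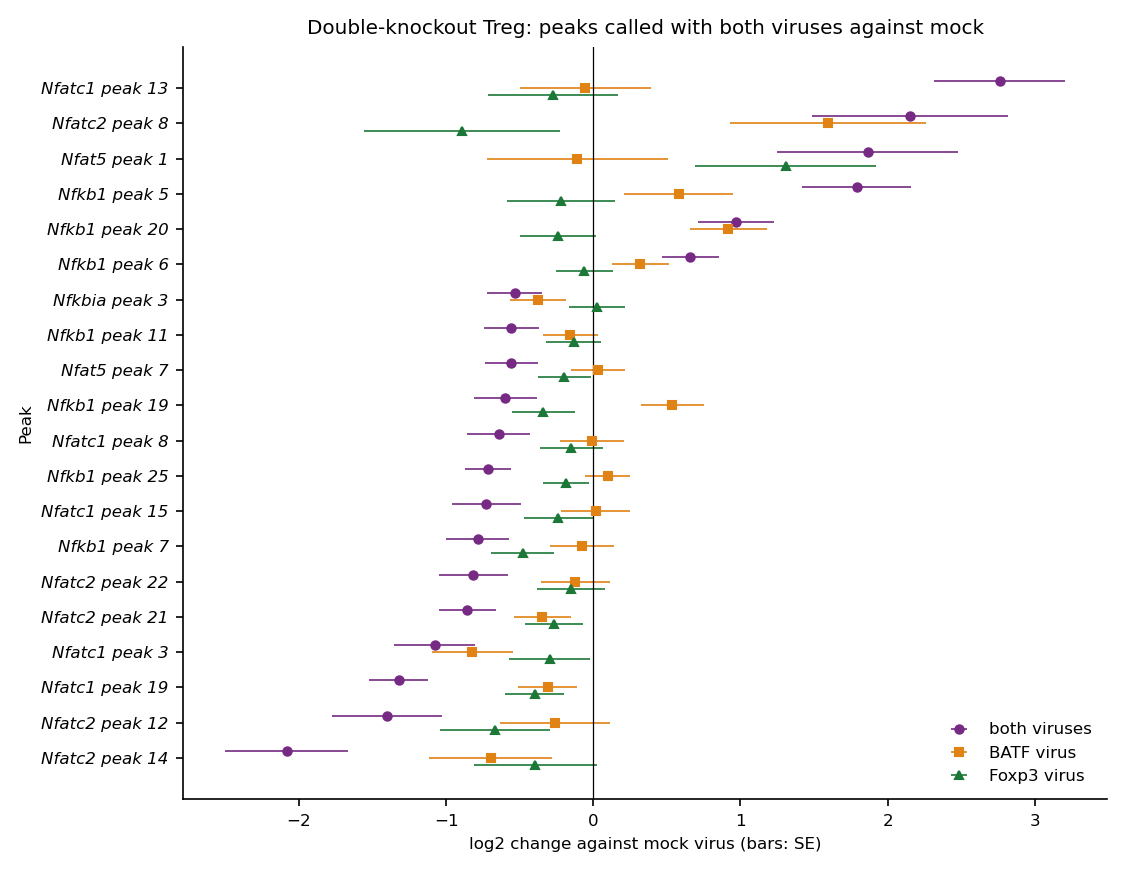
Log2 change against mockRV DKO Treg, with standard errors, for Foxp3BATFRV (labelled both viruses), BATFRV and Foxp3RV. The 20 peaks called with Foxp3BATFRV are shown, ordered by that change. The largest gain is at Nfatc1 peak 13 (2.76), where the points of the single viruses lie near 0.

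The virus with both factors was also compared with each single virus. Against BATFRV it had 4 peaks higher and 13 lower, where 14.1% of all peaks were called (7.08% higher, 7.01% lower); this was 1 higher and 9 lower under quantile scaling, and 6, 9 or 10 in all without BATFRV replicate 2, Foxp3BATFRV replicate 1 or BATFRV replicate 1. Nfkb1 peak 19 scored 77.7 and 67.9 with Foxp3BATFRV against 163 and 158 with BATFRV, a log2 change of -1.14 (SE 0.21, adjusted p = 0.000434) that held when any 1 library was left out. Nfkb1 peak 1 scored 35.9 and 56.4 with Foxp3BATFRV against 19.8 and 25 with BATFRV (log2 change 0.99, SE 0.29, adjusted p = 0.0199), and Nfkb1 peak 28 (chr3:135713217-135713913) scored 30.1 and 26.5 against 60.6 and 49.9 (log2 change -0.94, SE 0.26, adjusted p = 0.0124). Both of these were lost without BATFRV replicate 1 (adjusted p = 0.141 and 0.108) or Foxp3BATFRV replicate 2 (adjusted p = 0.262 and 0.0923). Against Foxp3RV it had 8 peaks higher and 13 lower, where 18.1% of all peaks were called (10.6% higher, 7.54% lower), and 12 or 13 in all without Foxp3RV replicate 2 or Foxp3BATFRV replicate 2. Of the 13 losses, 5 were at Nfkbia: peak 6 scored 56.3 and 59.9 with Foxp3BATFRV against 85 and 139.7 with Foxp3RV (log2 change -0.90, SE 0.30, adjusted p = 0.0362) and peak 2 scored 62.1 and 53 against 95.7 and 106 (log2 change -0.80, SE 0.26, adjusted p = 0.0277). Both were lost without Foxp3RV replicate 2 (-0.54, adjusted p = 0.380, and -0.73, adjusted p = 0.146) and in other fits without 1 library. Nfkb1 peak 6 scored 279 and 416 with Foxp3BATFRV against 175 and 243 with Foxp3RV (log2 change 0.72, SE 0.19, adjusted p = 0.00789), a call lost without Foxp3RV replicate 1 (0.49, adjusted p = 0.144) or Foxp3BATFRV replicate 2 (0.43, adjusted p = 0.229). Nfatc1 peak 6, the peak lower in BATFKO Treg before adjustment, scored 68 and 89.8 with Foxp3BATFRV against 37.6 and 52.2 with Foxp3RV (log2 change 0.80, SE 0.24, adjusted p = 0.0164), and this was lost without Foxp3RV replicate 1 (0.57, adjusted p = 0.172) or Foxp3BATFRV replicate 2 (0.61, adjusted p = 0.192).

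The peaks moved by Foxp3BATFRV were compared with the effector step of normal Treg, which shares no library with them. Of the 6 peaks raised with Foxp3BATFRV, 5 were also higher in eTreg than in cTreg (83.3% of the 6 and 16.1% of the 31), against 61.5% and 40.2% over all peaks. Of the 14 peaks lowered with Foxp3BATFRV, 4 were also lower in eTreg than in cTreg (28.6%) and 3 were higher (21.4%), where 56.1% and 4.65% of all peaks lowered with Foxp3BATFRV were so. The 4 were Nfatc2 peaks 12 and 14 and Nfkb1 peaks 7 and 25, and the 3 were Nfatc1 peaks 3 and 15 and Nfkb1 peak 11. Summed scores of the 4 naive marker genes were 11759 to 14592 with Foxp3BATFRV against 20514 to 27922 with mockRV, and those of 5 myeloid marker genes with peaks (of 6 listed) were 1844 to 2127 against 958 to 1160. The B cell sums were 945 to 1046 with Foxp3BATFRV, 697 to 699 with BATFRV and 692 to 717 with Foxp3RV, against 469 to 504 with mockRV, and the CD8 and NK cell sums were 956 to 1010 with Foxp3BATFRV against 1443 to 1467 with mockRV; their part in these results was not tested.

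A direct test asked whether becoming effector cells changed these peaks differently in Treg, as the change of eTreg against cTreg minus that of Teff against Tnaive. It called 0 of the 118 peaks higher and 5 lower (4.24%), where 3.91% of all peaks were called (1.18% higher, 2.72% lower), and the count was 1 to 3 when any 1 library of eTreg, cTreg or Teff was left out and 6 without either Tnaive library. With only the compared groups in the fit the count was 8, where 6.57% of all peaks were called, and under quantile scaling 9, where 5.27% were. At Nfkb1 peak 7, which scored 98.6 and 87.8 in the eTreg libraries, 189 and 177 in those of cTreg, 212 and 210.3 in Teff and 134 and 82.9 in Tnaive, the step was downward in Treg and upward in conventional cells. The difference was -1.97 (SE 0.31, adjusted p = 0.000152) and held when any 1 library was left out. At Nfkbia peak 5 it was -2.81 (SE 0.61, adjusted p = 0.00541), and was not called without cTreg replicate 2 (-2.42, adjusted p = 0.0506) or Teff replicate 2 (-2.47, adjusted p = 0.0547). Nfkb1 peak 9 (chr3:135607001-135607401) scored 209 and 208 in the eTreg libraries, 165 and 164 in those of cTreg, 109 and 138 in Teff and 48.5 and 31.1 in Tnaive, with a log2 change of 2.06 (SE 0.24, adjusted p = 1.49e-07) for cTreg against Tnaive. Its rise with the effector state was smaller in Treg, a difference of -1.29 (SE 0.34, adjusted p = 0.0226) that was lost in 6 of 8 fits without 1 library (adjusted p = 0.0703 to 0.156). Rel peak 4 (difference -1.83, adjusted p = 0.0428) and Nfkb1 peak 25 (difference -0.77, adjusted p = 0.0421) were the others, and each was lost in 7 of 8 fits without 1 library (adjusted p up to 0.230 and 0.179). The call at Rel peak 4 was also lost with a pseudocount of 5 (-1.25, adjusted p = 0.0850), under quantile scaling (-1.19, adjusted p = 0.172) and under edgeR (adjusted p = 0.0810).

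Whether the 2 factors together did more than the sum of each on the log2 scale was tested as the Foxp3BATFRV change minus the changes of BATFRV and Foxp3RV. Among the 118 peaks 1 was called, in the upward direction (0.847%), where 1.09% of all peaks were called (0.586% upward, 0.506% downward). This was Nfatc1 peak 13, with a departure of 3.09 (SE 0.63, adjusted p = 0.0149). It was not called with only the DKO groups in the fit (adjusted p = 0.108), nor without Foxp3RV replicate 2 (2.94, adjusted p = 0.0521) or Foxp3BATFRV replicate 2 (2.77, adjusted p = 0.0546). Over all peaks the split was 406 upward and 351 downward, and 170 and 242 under quantile scaling.

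Peaks near other genes with the most similar pattern were sought for the 3 genes whose peak varied most over the 13 group means, among peaks with a mean score above the table's median of 48.6. Rel peak 7, below that median, had a larger SD of group means (1.34) than Nfatc2 peak 13 (1.28) and Nfkb2 peak 1 (1.13). The measure was Pearson's r of the mean log2 scores, a description over 13 groups that span both protocols and share controls. Nfatc1 peak 16 was most like peaks nearest to Npas2 (0.976), Akap11 (0.976), Cxcr3 (0.975), Myo1f (0.966) and Elmo1 (0.959). Cxcr3 encodes a chemokine receptor of effector T cells. Nfatc2 peak 13 was most like peaks nearest to Pigz (0.983), Nsmce2 (0.977), N4bp1 (0.976), Fam110a (0.975) and Eya3 (0.973). Nfkb2 peak 1 was most like peaks nearest to Emg1 (0.994), Elmod2 (0.993), Ccdc189 (0.993), Tuba1a (0.992) and Trpm4 (0.992), and its main variation was the step between protocols described above. Median scores also differed between protocols at Nfatc2 peak 13 (151 over omniATAC against 47.3 over ATAC) and Nfatc1 peak 16 (167 against 44.2), with overlapping ranges.

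Genes upstream and downstream of both families were counted from 4 lists of 55 genes, of which 53 had peaks (519 in all). At 17 NFAT pathway genes (calcineurin, its regulators and calcium entry, 208 peaks), 38 peaks were higher and 48 lower in eTreg than in cTreg, and 12 higher and 34 lower in eTreg than in Teff. These were 41.3% and 22.1% of the list's peaks, where 37.1% and 17.5% of all peaks were called. Rcan1, a calcineurin inhibitor that calcineurin itself induces, had a peak at chr16:92443621-92444021 with 309 and 261 in eTreg against 5.33 and 5.51 in cTreg (log2 change 5.47, SE 0.40). Ppp3ca, a catalytic subunit of calcineurin, had a peak at chr3:136941010-136941410 with 530 and 501 in eTreg against 70.2 and 80.5 in cTreg (log2 change 2.76, SE 0.24). Itpr1, a calcium channel of internal stores, had a peak at chr6:108524240-108524640 with 25.5 and 38.6 in eTreg against 252 and 326 in cTreg (log2 change -3.15, SE 0.28). Orai2, a calcium entry channel, had a peak at chr5:136173573-136173973 with 36.7 and 37.8 in WT Treg against 136 and 105 in WT Tconv (log2 change -1.65, SE 0.25). The list thus held large changes in both directions.

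At the 17 NF-kB signalling genes (168 peaks), 25 peaks were higher and 35 lower in eTreg than in cTreg, and 13 higher and 26 lower in WT Treg than in WT Tconv. The shares called, 35.7% and 23.2%, were near the 37.1% and 20% of all peaks. Traf1, an adaptor of TNF receptors, had a peak at chr2:34958046-34958446 with 122 and 151 in WT Treg against 42.5 and 31.8 in WT Tconv (log2 change 1.86, SE 0.25). For Prkcq, the kinase that links the antigen receptor to NF-kB, the peak at chr2:11159672-11160072 lies 11833 bp from the gene body. It scored 114 and 166 in WT Treg against 266 and 323 in WT Tconv (log2 change -1.09, SE 0.17). At the 10 inhibitor genes (92 peaks), 13 peaks were higher and 2 lower in cTreg than in Tnaive, and 11 higher and 4 lower in WT Treg than in WT Tconv. The 13 higher peaks lay at 5 genes and the 2 lower at 2. The 11 higher peaks lay at only 2 genes, and the 4 lower at 4. The share called was 16.3% of the list's peaks in each comparison, where 16.6% and 20% of all peaks were called. For Nfkbiz, an atypical IkB that acts in the nucleus, the peak at chr16:55733805-55734205 lies 77170 bp from the gene body. It scored 66.0 and 61.2 in WT Treg against 11.4 and 11.4 in WT Tconv (log2 change 2.38, SE 0.30). For Tnfaip3, the gene of the deubiquitinase A20, the peak at chr10:19078090-19078490 lies 62680 bp from the gene body. It scored 103 and 85.4 in eTreg against 8.71 and 15.7 in Teff (log2 change 2.90, SE 0.37). At the 9 TNF receptor family genes (51 peaks), 5 peaks were higher and 13 lower in eTreg than in Teff (35.3%, where 17.5% of all peaks were called). In WT Treg 11 peaks were higher, at 6 genes, and 10 lower, at 4 genes, than in WT Tconv. These were 41.2% of the list's peaks, where 20% of all peaks were called. Among the 10 lower was a peak of Ltbr, the lymphotoxin receptor gene, at chr6:125302066-125302466, 4105 bp from the gene body. It scored 4.89 and 4.08 in WT Treg against 42.5 and 72.7 in WT Tconv (log2 change -3.37, SE 0.41).

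Peaks of these lists were also called in the mutant and virus comparisons. In BATFKO Treg 0 list peaks were higher and 15 lower than in WT Treg (2.89% of 519, where 1.49% of all peaks were called). Of the 15, 8 lay at 4 of the 17 NFAT pathway genes, which is 3.85% of that list's peaks. The Ppp3ca peak above scored 52.6 and 49.3 in BATFKO Treg against 268 and 175 in WT Treg (log2 change -2.07, SE 0.24). Bcl10 and Malt1 encode partners in a complex that carries antigen receptor signals to NF-kB. A peak of Bcl10 (chr3:145916857-145917257, 7005 bp from the gene body) scored 31.0 and 25.3 in BATFKO Treg against 202 and 136 in WT Treg (log2 change -2.52, SE 0.25). A peak of Malt1 scored 15.5 and 22.7 in BATFKO Treg against 141 and 105 in WT Treg (log2 change -2.63, SE 0.28). Against mockRV in DKO Treg, BATFRV raised 31 list peaks and lowered 3 (6.55%, where 3.49% of all peaks were called). Of these gains 24 lay at only 6 of the 17 NFAT pathway genes, a list with 12.5% of its peaks called. Foxp3RV raised 3 and lowered 3 (1.16%, where 1.82% were called), and Foxp3BATFRV raised 65 and lowered 71 (26.2%, where 23.3% were called). The Malt1 peak scored 298 and 394 with Foxp3BATFRV, 296 and 343 with BATFRV, and 51.7 and 41.1 with mockRV. In Foxp3R397W Treg 5 list peaks were higher and 16 lower than in their WT control (4.05%, where 2.63% were called). Of the 16, 11 lay at only 2 of the 17 NFAT pathway genes. The NF-kB signalling genes had 3 peaks higher and 2 lower. Also among the 16 was a Tnfaip3 peak at chr10:18946752-18947152, 53758 bp from the gene body. It scored 5.06 and 4.94 against 24.3 and 29.4 (log2 change -2.21, SE 0.42). The difference between these lists and the 118 peaks was not tested.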

How the data were processed

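Each library is ATAC-seq or omniATAC of sorted mouse T cells, with 2 libraries a group. Per the submitters' processing notes, the tools were DiffBind 3.0.15 and 3.4.11, edgeR 3.36.0 and 3.38.4, Bowtie2 2.4.1 and MACS2 2.2.7.1, on the build mm10; no source used here gives their order or settings. The deposited values are signal: reads per peak divided by 1 factor per library. Whole reads were recovered for 100% of values within 0.02.

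Scores of all 69316 peaks were tested as log2(score + 1), which understates the change of low peaks, with limma 3.58.1 (R 4.3.3; trend and robust) in 1 fit over 26 libraries and 13 groups. P-values were adjusted over all peaks by Benjamini-Hochberg. In simulated data 29 of 100 changes of 2-fold and 100 of 100 of 4-fold were called, with 14 false calls among 69316 peaks. The simulation set 1 dispersion for all peaks, not estimated from these data. It changed only peaks above the median mean score, only upward and only in eTreg. It therefore does not describe low peaks or losses. Peaks were matched to 21896 protein-coding genes of RefSeq with bedtools 2.31.1.

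The rule for naming took, per comparison, up to 3 called peaks in each direction with the largest change, a mean score above the table's median and no overlap between groups, and for differences of changes the 3 with the smallest p. Of 102 named results 48 followed it, and 54 were chosen after their values were seen, also where this is not repeated. Pathway list peaks were named from the 3 genes per direction and comparison with the smallest p. They are not among the 102, and their values under the alternatives are not given. The members and gene lists were chosen with earlier results of these data known. Some genes of these lists are not reported here by name; counts over a pathway list include them. The alternatives were a pseudocount of 5, a mean score of at least 20, quantile scaling, edgeR 4.0.16 on recovered reads, only the compared groups, a replicate block, leaving out each library, a 10 kb limit, and the 22-library table under its own names. Libraries of the 22-library table were otherwise not used here. The Foxp3 WT control columns do not say which mutant they belong to and were read as the Foxp3R397W control.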

Additional observations from a re-analysis of the deposited data

Results flagged for a closer look

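At 5 of the 118 peaks the step to the effector state differed between Treg and conventional cells in the limma test of that difference (eTreg against cTreg, minus Teff against Tnaive). At Nfkb1 peak 7 the difference was -1.97 (SE 0.31, adjusted p = 0.000152), with scores lower in eTreg than in cTreg and higher in Teff than in Tnaive. At Nfkbia peak 5 it was -2.81 (SE 0.61, adjusted p = 0.00541), where eTreg scored 2.22 and 2.34 and the 3 other groups 19.2 to 34.2. At Rel peak 4 it was -1.83 (SE 0.52, adjusted p = 0.0428), where both Treg groups were open at a like level and Teff stood above Tnaive; this call was lost with a pseudocount of 5, under quantile scaling and under edgeR. At Nfkb1 peak 9 it was -1.29 (SE 0.34, adjusted p = 0.0226), and at Nfkb1 peak 25 (chr3:135689047-135689447) it was -0.77 (SE 0.22, adjusted p = 0.0421), with scores of 208 and 204 in the eTreg libraries, 363 and 315 in those of cTreg, 255 and 238 in Teff and 219.7 and 257 in Tnaive.

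In DKO Treg, Nfatc1 peak 13 departed from the sum of the 2 single viruses by 3.09 (SE 0.63, adjusted p = 0.0149) on the log2 scale. It was open with Foxp3BATFRV and near the mockRV level with either virus alone, where each library held 5 to 11 reads.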

How the results depend on the processing

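Of 169 alternative counts of called peaks, 112 stayed within 1.5 times the reported count, and of 1206 alternative values for named peaks 1005 kept their direction and side of the threshold. Leaving out 1 library gave 21 to 27 calls for WT Treg against WT Tconv (32 reported), 32 to 38 for eTreg against cTreg (44), 38 to 46 for Teff against Tnaive (53), 22 to 28 for cTreg against Tnaive (30), 11 to 14 for eTreg against Teff (28), 0 to 1 for BATFKO Treg (0), 0 for Foxp3R397W Treg (2), 0 to 3 for Foxp3RV (0), 0 to 1 for BATFRV (1), 11 to 16 for Foxp3BATFRV against mockRV (20), 6 to 12 against BATFRV (17), 12 to 15 against Foxp3RV (21), 1 to 6 for the effector step (5) and 0 to 1 for non-additivity (1). A pseudocount of 5 gave 1 for Foxp3RV and 3 for BATFRV. A mean score of at least 20 gave 0 for non-additivity, because it leaves out Nfatc1 peak 13, whose mean score is 17.7. Quantile scaling gave 4 for BATFKO Treg, 10 for Foxp3BATFRV against BATFRV and 9 for the effector step. Recovered reads under edgeR gave 8 for Foxp3R397W Treg, 1 for Foxp3RV and 2 for BATFRV. With only the compared groups the counts were 1 for BATFKO Treg, 8 for Foxp3R397W Treg, 2 for BATFRV, 9 for Foxp3BATFRV against Foxp3RV, 8 for the effector step and 0 for non-additivity. The cause of the other shifts was not tested.

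Replicate numbers are only 2 per group and do not pair samples by the labels. Same-numbered deviations correlated at 0.04 to 0.21 where the sample labels share numbers. With the replicate block the counts were 3 for BATFKO Treg, 4 for Foxp3RV, 2 for BATFRV, 13 for the effector step and 2 for non-additivity. No block was fitted for Foxp3R397W Treg, whose sample labels share no numbers with their control. By the numbers in the column names, which are shared, their deviations correlated at 0.33.

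Under the other table's names, 12 of 18 shared libraries change group. The other 6, of WT Treg, WT Tconv and BATFKO Treg, keep their names, so comparisons among these 3 groups use the same libraries. That table also has its own 68597 peaks, its own score factors and its own fit. The counts were then 50 for WT Treg against WT Tconv, 4 for eTreg against cTreg, 3 for Teff against Tnaive, 0 for cTreg against Tnaive, 0 for eTreg against Teff, 2 for BATFKO Treg, 43 for Foxp3R397W Treg and 0 for the effector step, and 37 values changed sign. For eTreg against cTreg these were Nfatc1 peaks 16 (-0.18), 5 (0.53) and 14 (-0.45), Rel peaks 2 (-1.06), 6 (0.17) and 7 (0.10), Nfkb1 peaks 1 (-0.32), 7 (0.21), 20 (-0.38), 6 (-0.23) and 18 (-1.78), Nfatc2 peaks 14 (0.99) and 17 (-0.34), Nfkbia peak 5 (0.68) and Nfat5 peak 5 (-1.05). For Teff against Tnaive they were Rel peaks 2 (-0.87), 4 (-0.64) and 6 (0.038), Nfatc2 peaks 13 (-1.62) and 14 (0.84), Nfatc1 peaks 23 (0.28) and 14 (-0.037), Nfkbia peaks 11 (0.13) and 1 (-0.95) and Nfkb1 peak 6 (-0.27). For cTreg against Tnaive they were Nfkb1 peak 24 (-0.22) and Nfatc2 peaks 21 (0.079) and 14 (0.084). For eTreg against Teff they were Nfkb1 peaks 24 (-0.19) and 20 (-0.050), Rel peak 2 (-0.25), Nfatc1 peak 5 (0.25), Nfatc2 peak 14 (0.24) and Nfkbia peak 5 (0.35). For the effector step they were Nfkbia peak 5 (0.21), Rel peak 4 (0.33) and Nfkb1 peak 25 (0.0042). What depth limits was not tested.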
